A study of Macaca mulatta with 81 samples.

Results

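T cells of rhesus macaques that had received an allogeneic hematopoietic cell transplant under belatacept alone (Bela.F, 3 arrays) were compared with T cells of recipients given no prophylaxis (NoRx.F, 4 arrays). The arrays were chosen by their labels, as the 7 of 81 whose title ends in one of these group names, and no measured value entered the choice. All 7 came from blood T cells sorted on CD3, from 7 different animals, at a time after transplant labelled final with no day given. What was shared by both groups was the allogeneic transplant, and any conditioning before it is not given in the labels. The other arrays used here were 34 labelled as healthy controls (Healthy.Control), and the final arrays of allogeneic recipients under other prophylaxes. These were FR104 (FR104.F, 3 arrays), Siro (Siro.F, 4 arrays) and Tac.Mtx (Tac.Mtx.F, 3 arrays). Some healthy arrays came from animals that also gave transplant arrays, namely Bela.F 47, NoRx.F 53, FR104.F 22 and Siro.F 13, 16 and 18. The main fit did not use this pairing. The label Bela is taken to mean belatacept, Siro sirolimus, an mTOR inhibitor, and Tac.Mtx the calcineurin inhibitor tacrolimus with methotrexate. The labels do not spell these names out. Age, sex and outcome of the animals are not given in the labels.

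In an allogeneic transplant, donor T cells that meet the antigens of the recipient can attack its tissues, which is graft-versus-host disease. A T cell needs a signal through its receptor and a second one through CD28, which binds CD80 and CD86 on antigen-presenting cells. Belatacept is a soluble CTLA4 fusion protein that covers CD80 and CD86, and so withholds their contact from CD28 and also from CTLA4, the inhibitory receptor of the same ligands. FR104 is an antibody fragment that binds CD28 itself and leaves the contact of CTLA4 with CD80 and CD86 free. Activated T cells divide, take up and burn more fuel, and lose factors of the resting state such as TCF7, the transcription factor TCF1 of naive and memory T cells.

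Levels are log2 signals of probe sets, so a difference of 1 is a 2-fold difference, and levels of different genes are not compared. Changes are log2 differences from limma with group and batch label as terms, each with its standard error (SE), and a gene passed the test at a Benjamini-Hochberg adjusted p under 0.05 over all 11806 genes tested. No batch label held both groups. The Bela.F arrays carried label 3, NoRx.F arrays 50, 51 and 52 label 1 and NoRx.F array 53 label 2. The batch terms thus came from groups that span labels, and no within-batch value exists. FR104.F (label 4) and Siro.F (labels 1 and 2) share no label with Bela.F either. The fitted term for label 3 minus label 1 was small, with a median size of 0.014 and a 95th percentile of 0.042. Batches had been adjusted before deposit, and whether group differences were kept in that step is not given. The difference between actin 3' and 5' probe sets, a sign of RNA quality, was 0.870 to 1.36 in Bela.F and 0.611 to 1.14 in NoRx.F arrays (two-sided exact permutation p = 0.229, where 3 against 4 arrays cannot go below 0.0571). The coreceptor gene CD8A was at 12.37 to 13.06 in Bela.F and 12.99 to 13.13 in NoRx.F arrays. The CD3 genes were not analysed here. Of the Bela.F arrays, replicate 57 lay nearer to the healthy controls. Its root mean square distance from their mean over all genes tested was 0.404, against 0.570 and 0.539 for replicates 47 and 46, 0.518 to 0.638 for the NoRx.F arrays and 0.213 to 0.344 among the healthy controls.

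Of the 11806 genes, 220 (1.86%) differed between Bela.F and NoRx.F. Of these, 197 (1.67%) were higher in Bela.F and 23 (0.195%) were lower. The rise was at least 2-fold for 79 genes, and the fall for 1 gene, SLC27A2. The arrays of the groups did not overlap in 207 of the 220 genes, and in 1566 (13.3%) of all genes tested. The 15 largest rises and 15 largest falls named below were taken among genes without overlap, so the lack of overlap in them follows from that choice. The median change over all genes was -0.01, and 49.2% of all genes had a change above 0. Normalizing the arrays by quantiles again gave 207 genes, of which 79.2% were higher in Bela.F, beside 89.5% in the values as deposited. Without Bela.F replicate 57 the count was 86, without NoRx.F replicates 51 and 52 it was 110 and 116, and without NoRx.F replicate 53 it was 454. The 23 falls were 4 without Bela.F replicate 57, 10 without NoRx.F replicate 50, 12 without replicate 51 and 5 without replicate 52, and they were 39 when Bela.F replicate 47 was left out and 103 when NoRx.F replicate 53 was. A fit with no batch label called 711 genes.

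CA6, a secreted carbonic anhydrase, rose most. Its level was 12.37, 12.37 and 12.46 in the Bela.F arrays (replicates 47, 57 and 46), against 9.65, 9.43, 9.87 and 10.70 in the NoRx.F arrays (replicates 50, 51, 52 and 53), and 10.43, 11.46 and 12.30 as lowest, median and highest of the healthy controls. All 3 Bela.F arrays were above every NoRx.F array and above every healthy control. The change was 2.49 ± 0.45 (SE), or 5.62-fold, with an adjusted p of 0.000652. CA6 was past the threshold under each of the 17 alternatives tried, at adjusted p of 1.09e-05 to 0.0059.

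TCF7 was at 12.32, 12.90 and 12.57 in Bela.F, against 11.20, 11.43, 11.36 and 11.18 in NoRx.F, and 12.42, 12.93 and 13.42 as lowest, median and highest of the healthy controls. The groups did not overlap, and 2 of the 3 Bela.F arrays lay within the healthy range while all NoRx.F arrays lay below it. TCF7 rose by 1.30 ± 0.26 (SE, adjusted p = 0.00196), and it passed the test whichever of the 7 arrays was left out. The value rests on 1 probe set, the brightest of 3. The other probe sets for TCF7 changed by 0.66 and -0.50, and the mean of all 3 by 0.46 (adjusted p = 0.576).

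FAM241A was at 9.72, 9.28 and 9.66 in Bela.F, 7.32, 7.71, 6.96 and 7.58 in NoRx.F, and 7.97, 8.85 and 9.65 as lowest, median and highest of the healthy controls. It rose by 2.14 ± 0.37 (SE, adjusted p = 0.00056), and every NoRx.F array was below every Bela.F array and every healthy control. AATK, a kinase first described in apoptosis of myeloid cells, was at 9.73, 10.80 and 10.18 in Bela.F, 8.20, 8.19, 7.74 and 8.93 in NoRx.F, and 9.21, 9.80 and 10.31 as lowest, median and highest of the healthy controls. It rose by 1.94 ± 0.38 (SE, adjusted p = 0.00111), again without overlap.

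**Figure D1:**
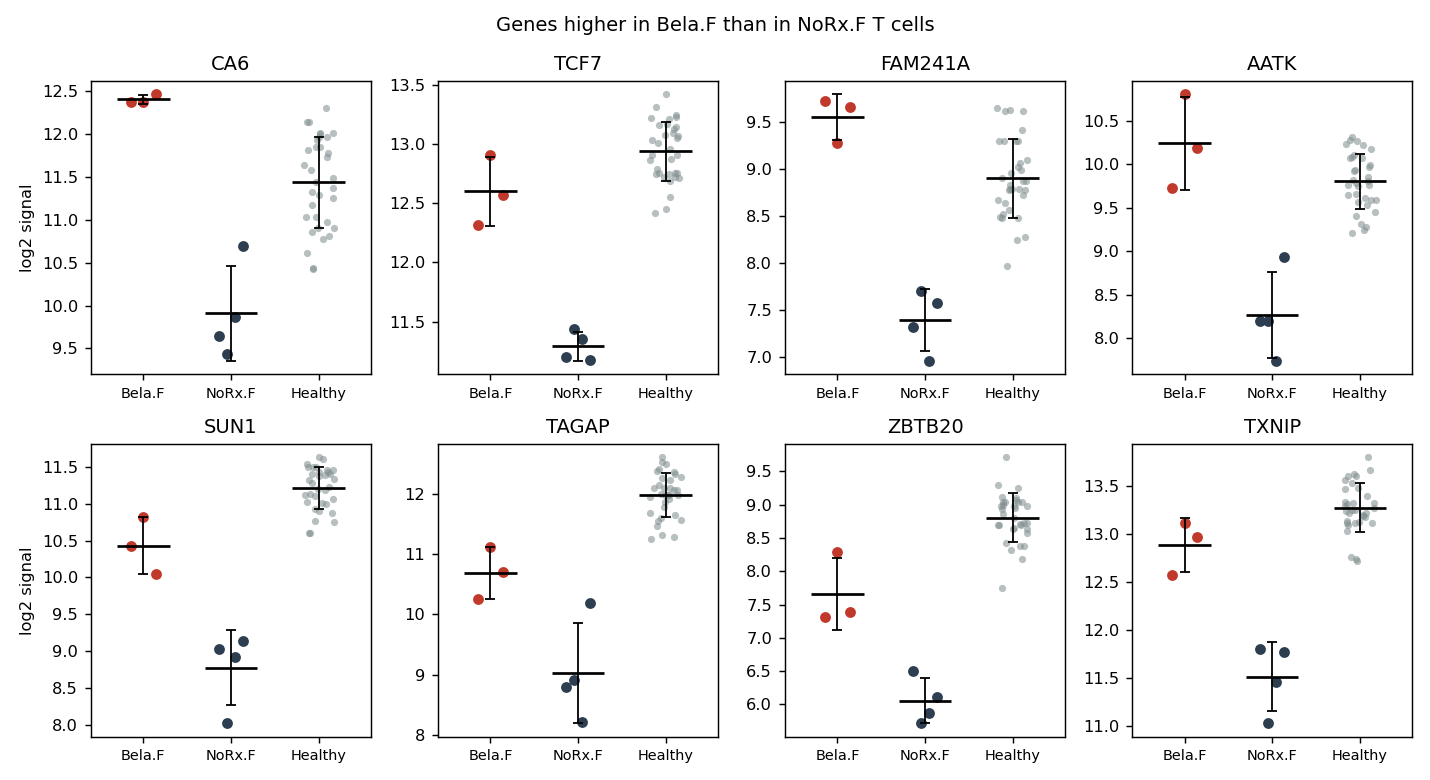
Log2 signal (vertical axes, which do not start at 0) of 8 genes higher in Bela.F than in NoRx.F, with a point for each array of Bela.F (n = 3), NoRx.F (n = 4) and the healthy controls (n = 34), and bars for mean ± SD. None of the 8 genes shows overlap between Bela.F and NoRx.F, which was required of most of them when they were chosen and holds in 13.3% of all genes tested. For CA6 the Bela.F arrays (12.37 to 12.46) are also above the highest healthy control (12.30).

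A group of genes that were lower in both transplant groups than in healthy controls was less low in Bela.F. TAGAP, a GTPase-activating protein of T cell activation, was at 10.25, 11.12 and 10.71 in Bela.F, 8.79, 8.91, 8.20 and 10.18 in NoRx.F, and 11.26, 11.999 and 12.62 as lowest, median and highest of the healthy controls. The change between the transplant groups was 1.64 ± 0.35 (SE, adjusted p = 0.00392), with Bela.F at -1.30 and NoRx.F at -2.95 against healthy controls (adjusted p = 0.000138 and 9.42e-16). Without Bela.F replicate 57 the change in TAGAP was 1.43 with an adjusted p of 0.0571. The value rests on the brightest of 5 probe sets. The other probe sets for TAGAP changed by 0.26, -0.20, 0.19 and -0.41, and the mean of all 5 by 0.28 (adjusted p = 0.787). ZBTB20, a transcriptional repressor of the BTB zinc finger family, stood at 7.31, 8.28 and 7.39 in Bela.F, 6.50, 5.72, 5.87 and 6.11 in NoRx.F, and 7.75, 8.83 and 9.72 as lowest, median and highest of the healthy controls. Its change was 1.59 ± 0.31 (SE, adjusted p = 0.00104), and a second probe set for it changed by 0.78. SUN1, a protein of the inner nuclear membrane, was at 10.42, 10.82 and 10.05 in Bela.F, 9.03, 8.02, 8.92 and 9.13 in NoRx.F, and 10.60, 11.25 and 11.63 as lowest, median and highest of the healthy controls. SUN1 rose by 1.64 ± 0.28 (SE, adjusted p = 0.00056), with 1.71 at the next brightest of its 4 probe sets. Both ZBTB20 and SUN1 passed the test under all 17 alternatives.

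Of the other large rises, ARRDC3, an arrestin-like adaptor of receptor trafficking (1.65 ± 0.36), and GALNT2, which starts the O-glycosylation of proteins (1.59 ± 0.37), also passed under all 17 alternatives. MARF1, an RNA-binding regulator of mRNA stability (1.75 ± 0.32), and ZNF395 (1.64 ± 0.31) passed with any of the arrays left out, and fell under the threshold where all probe sets of the gene were averaged (adjusted p = 0.294 and 0.78). GPRASP1, which sorts receptors to lysosomes (1.89 ± 0.48), GPHN, a scaffold of inhibitory synapses (1.59 ± 0.42), and DACT1 (2.07 ± 0.59) were past the threshold in 4, 3 and 2 of the 7 fits that left out 1 array. Among the other probe sets of the 220 genes with a mean above the filter level, 190 of 253 changed in the same direction as the one used, and 63 in the opposite direction.

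The list of naive and quiescent T cell genes had 10 members tested, of which 2 rose (beside 1.67% of all genes) and none fell. The list median was 0.53 beside -0.01 over all genes. This and the other lists were made with earlier results of these data known, so their counts are not independent support. The 2 were TCF7 and FOXP1, a factor that holds T cells at rest. FOXP1 was at 11.66, 12.03 and 11.63 in Bela.F, against 11.14, 11.04, 10.95 and 11.16 in NoRx.F, and 11.94, 12.35 and 12.72 as lowest, median and highest of the healthy controls. Its change was 0.69 ± 0.19 (SE, adjusted p = 0.0373), and without Bela.F replicate 57 it was 0.56 (adjusted p = 0.232). FOXP1 passed in 3 of the 7 fits that left out 1 array, and not without NoRx.F replicates 50, 51 or 52. With all probe sets of a gene averaged, the list median was 0.34. Other members that did not pass were CCR7, the receptor that brings naive T cells to lymph nodes (1.10, adjusted p = 0.345), PIK3IP1, an inhibitor of PI3 kinase (0.97, adjusted p = 0.138), KLF3 (0.94, adjusted p = 0.0775), KLF2 (0.29, adjusted p = 0.477) and ID3 (-1.02, adjusted p = 0.269). Of 7 Wnt pathway genes tested (list median 0.57), TCF7 and DACT1, an inhibitor of Dishevelled, rose (beside 1.67% of all genes) and none fell. With the probe sets of each gene averaged, neither passed and the Wnt median was 0.08. AXIN2, the usual target of Wnt signalling, changed by 0.26 (adjusted p = 0.905).

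Several genes outside the lists that act in T cell growth and signalling rose as well, and these were picked after their values were seen. TXNIP, an inhibitor of glucose uptake and of thioredoxin, was at 12.57, 13.11 and 12.97 in Bela.F, 11.81, 11.03, 11.46 and 11.78 in NoRx.F, and 12.72, 13.25 and 13.80 as lowest, median and highest of the healthy controls. Its change was 1.37 ± 0.25 (SE, adjusted p = 0.000784), and the 4 other probe sets for TXNIP changed by 1.23 to 1.32. TXNIP passed whichever array was left out, but not with its probe sets averaged (adjusted p = 0.268). CDKN1B, the cell cycle inhibitor p27, was at 10.10, 10.58 and 10.06 in Bela.F and 9.24, 8.82, 9.34 and 9.72 in NoRx.F (0.94 ± 0.22, adjusted p = 0.0116), and it was not past the threshold without Bela.F replicate 57 or NoRx.F replicate 51. TGFBR1, a receptor chain for TGF-beta, was at 9.79, 9.73 and 9.70 in Bela.F and 8.59, 8.20, 8.18 and 9.21 in NoRx.F (1.16 ± 0.21, adjusted p = 0.000784), and 0.50 with its probe sets averaged (adjusted p = 0.115). For these genes too the Bela.F arrays stood above all NoRx.F arrays. ITM2A, a membrane protein of activated and developing T cells, was at 12.40, 12.39 and 12.35 in Bela.F and 11.50, 10.95, 11.12 and 11.46 in NoRx.F (1.11 ± 0.21, adjusted p = 0.00105), and it passed under all 17 alternatives. RASGRP1, which couples the T cell receptor to Ras (0.64), PIK3R1, the regulatory subunit of PI3 kinase (0.95, adjusted p = 0.0242), and RUNX1, a transcription factor of T cell development (0.98, adjusted p = 0.00284), were also higher in Bela.F. RUNX1 was 0.84 without Bela.F replicate 57 (adjusted p = 0.0503) and 0.09 with its 7 probe sets averaged (adjusted p = 0.788), of which 5 changed by -0.30 to -0.05. PIK3R1 passed in 3 of the 7 fits that left out 1 array, and not without Bela.F replicates 57 or 46 or NoRx.F replicates 51 or 53.

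**Figure D2:**
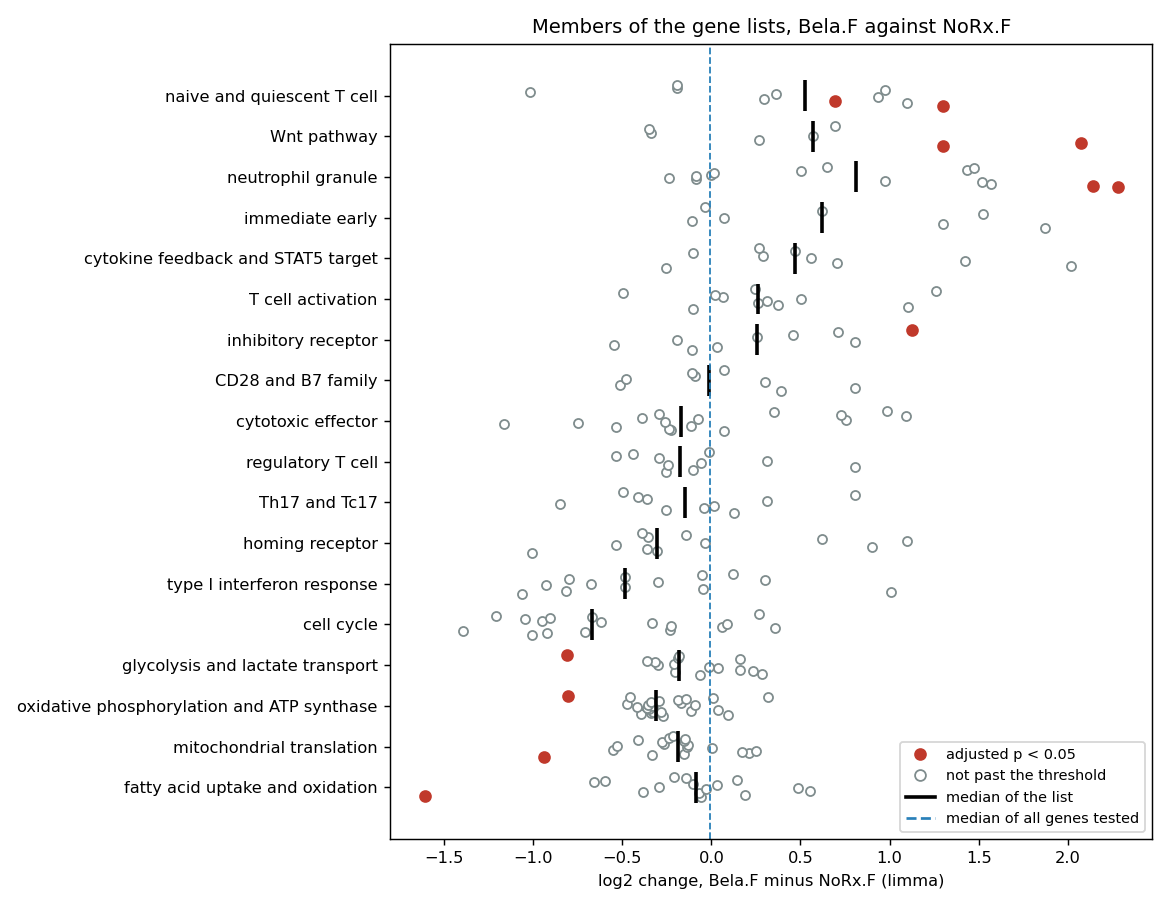
Log2 change of each tested member of 18 gene lists, Bela.F minus NoRx.F (horizontal axis), with the lists down the page, red points for members past the threshold, a black bar for the median of each list and a dashed line for the median of all genes tested (-0.01). The neutrophil granule list has a median of 0.81 (0.34 without Bela.F replicate 46), the immediate early list 0.62 (0.22 to 1.21 with 1 array left out) and the cell cycle list -0.67 (-0.41 without Bela.F replicate 57), the last 2 with no member past the threshold.

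SLC27A2, which takes up fatty acids and activates very long-chain ones, was at 8.90, 7.58 and 8.73 in Bela.F, against 10.09, 10.30, 10.25 and 9.30 in NoRx.F, and 7.12, 7.97 and 8.69 as lowest, median and highest of the healthy controls. Replicate 57 was the lowest of the Bela.F arrays and replicate 53 the lowest of the NoRx.F arrays, and the groups did not overlap. SLC27A2 fell by 1.61 on the log2 scale (SE 0.37, adjusted p = 0.00828). Against healthy controls it was at 0.45 in Bela.F (adjusted p = 0.297) and at 2.05 in NoRx.F (adjusted p = 6.45e-10). Without Bela.F replicate 57 the change of SLC27A2 between the transplant groups was -1.19 (adjusted p = 0.163).

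ATP5IF1, the inhibitor protein of mitochondrial ATP synthase, was at 9.83, 9.35 and 9.61 in Bela.F, 10.42, 10.45, 10.54 and 10.14 in NoRx.F, and 8.80, 9.18 and 9.48 as lowest, median and highest of the healthy controls. Every Bela.F array was below every NoRx.F array, and the change of -0.80 ± 0.15 (SE, adjusted p = 0.000982) passed under all 17 alternatives. TSFM, an elongation factor of mitochondrial translation, was at 8.82, 7.73 and 8.54 in Bela.F and 9.45, 9.14, 9.32 and 9.24 in NoRx.F (-0.94 ± 0.26, adjusted p = 0.0362). It was -0.62 without Bela.F replicate 57, with an adjusted p of 0.347. SLC16A3, which exports lactate, was at 9.11, 7.97 and 8.81 in Bela.F and 9.53, 9.60, 9.48 and 9.04 in NoRx.F, so that the groups overlapped. It changed by -0.81 ± 0.22 (SE, adjusted p = 0.036). Without Bela.F replicate 57 the change in SLC16A3 was -0.48 (adjusted p = 0.399). When any one of NoRx.F replicates 50, 51 and 52 was left out, neither TSFM nor SLC16A3 passed.

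Further falls were those of CARHSP1, an RNA-binding protein (-0.79), RNF7, a subunit of cullin ubiquitin ligases (-0.72), PRELID1, which carries lipid between the mitochondrial membranes (-0.70), PSTPIP1, a cytoskeletal adaptor of T cells (-0.69), and MRPL28 of the mitochondrial ribosome (-0.65). DTYMK, which makes the thymidine nucleotide for DNA synthesis (-0.62), FLAD1, which makes the cofactor FAD (-0.60), and SEC61B of the protein channel of the endoplasmic reticulum (-0.59) fell less. Genes were named here by a rule that required no overlap between the groups, which held in 13.3% of all genes tested. By that rule every Bela.F array was below every NoRx.F array in each of these genes. None of them passed without Bela.F replicate 57. Of the 7 fits that left out 1 array, CARHSP1 and DTYMK passed in 2, PRELID1 in 3, PSTPIP1 and MRPL28 in 4, RNF7 and SEC61B in 5 and FLAD1 in 6.

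**Figure D3:**
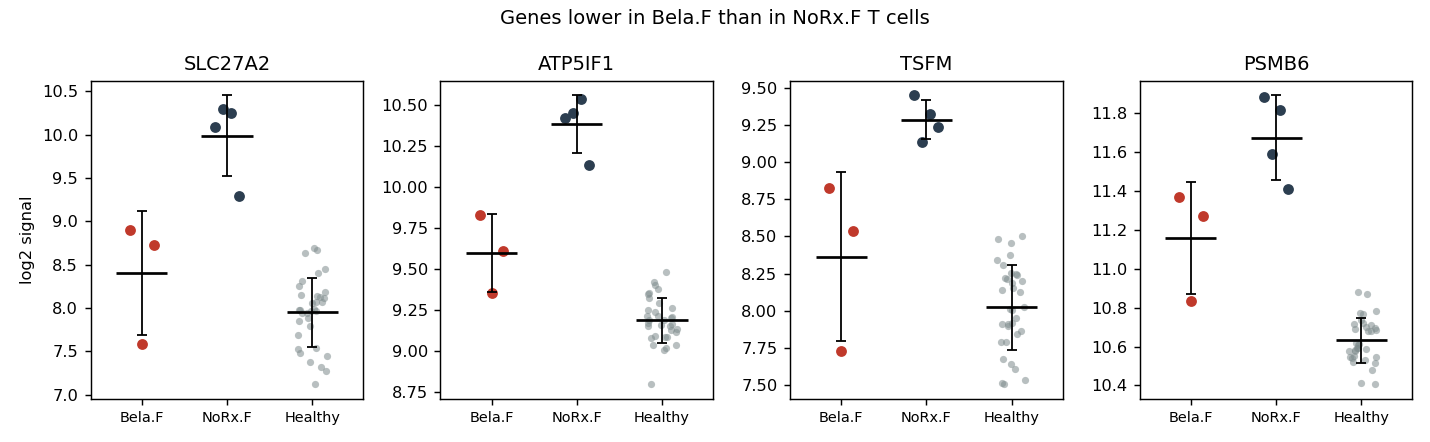
Log2 signal (vertical axes, which do not start at 0) of 4 genes lower in Bela.F than in NoRx.F, with a point for each array of Bela.F (n = 3), NoRx.F (n = 4) and the healthy controls (n = 34), and bars for mean ± SD. The Bela.F arrays lie below all NoRx.F arrays in each gene, which was required of most of them when they were chosen. For ATP5IF1 the NoRx.F arrays (10.14 to 10.54) lie above the highest healthy control (9.48).

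The lists on metabolism, made with earlier results of these data known, held few genes past the threshold. Of all genes tested, 0.195% fell. Of 16 genes of fatty acid uptake and oxidation, SLC27A2 fell and none rose (median -0.09). HADHA, a subunit of the enzyme complex for long-chain fatty acid oxidation, changed by -0.66 (adjusted p = 0.0763), and CPT1A, which admits fatty acids to mitochondria, by 0.48 (adjusted p = 0.687). Of 24 genes of oxidative phosphorylation and ATP synthase, ATP5IF1 fell and none rose, with a median of -0.31 and 20 members below 0. COX7A2 and NDUFV2, oxidative phosphorylation subunits that are not on this list, rose and are described under other observations. Of 18 genes of mitochondrial translation, TSFM fell and none rose (median -0.19), and of 15 genes of glycolysis and lactate transport, SLC16A3 fell and none rose (median -0.18). The glycolytic enzymes ENO1 and LDHA changed by -0.36 (adjusted p = 0.0873) and -0.19 (adjusted p = 0.618). Without Bela.F replicate 57 the medians of these lists were 0.08, -0.19, -0.11 and 0.00066.

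Gene families were also grouped by symbol, a grouping made after values were seen. Of 33 proteasome genes, 2 fell (beside 0.195% of all genes), none rose and 32 had changes below 0, with a median of -0.28. PSMB6, a catalytic subunit, was at 11.37, 10.83 and 11.27 in Bela.F and 11.88, 11.59, 11.82 and 11.41 in NoRx.F (-0.53 ± 0.14, adjusted p = 0.0275), and PSMD8, of the regulatory cap, was at 9.58, 9.05 and 9.45 in Bela.F and 10.12, 9.83, 10.01 and 9.71 in NoRx.F (-0.56 ± 0.16, adjusted p = 0.0481). Without Bela.F replicate 57 the median of the proteasome genes was -0.19 and PSMB6 was at -0.37 (adjusted p = 0.283). PSMB6 passed in 4 and PSMD8 in 2 of the 7 fits that left out 1 array. Of 62 genes of mitochondrial ribosomal proteins, 1 fell and none rose, and 51 were below 0. That is a share of 1.61%, beside 0.195% of all genes that fell and 1.86% that differed in either direction. Their median was -0.23, and -0.13 without Bela.F replicate 57.

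Of 46 genes of cytosolic ribosomal proteins, 5 rose (beside 1.67% of all genes) and none fell, 14 had changes below 0, and the median was 0.12. RPL10A was at 13.60, 13.77 and 13.70 in Bela.F and 13.26, 13.18, 13.23 and 13.20 in NoRx.F (0.47 ± 0.11, adjusted p = 0.00687). RPL30 was at 14.16, 14.30 and 14.19 in Bela.F and 13.997, 13.98, 13.98 and 13.99 in NoRx.F (0.23 ± 0.04, adjusted p = 0.000784), a small change at the bright end of the scale with little spread in NoRx.F. The other 3 were RPL9 (0.40), RPS6 (0.22) and RPS18 (0.17). RPL30 alone of the 5 passed without Bela.F replicate 57, RPS18 passed in 2 of the 7 fits that left out 1 array, and RPL9 was at -0.22 with its probe sets averaged (adjusted p = 0.767). Ribosomal protein genes have many near-identical processed copies in the genome, and probe sets may detect several of them.

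No gene of the cell cycle list passed the test. Of its 17 members, 13 had changes below 0, and the median was -0.67, and leaving out Bela.F replicate 57 gave -0.41 (-0.95 for NoRx.F replicate 53). MKI67, the marker of dividing cells, was at 9.09, 8.23 and 9.15 in Bela.F, against 10.32, 9.38, 10.06 and 9.49 in NoRx.F, and 5.90, 6.34 and 7.38 as lowest, median and highest of the healthy controls. The transplant groups did not overlap, and both were above every healthy control. The change of MKI67 was -1.005 ± 0.46 (SE, adjusted p = 0.309). CCNB2, a mitotic cyclin, was at 9.82, 8.14 and 9.36 in Bela.F and 11.15, 9.86, 10.89 and 9.95 in NoRx.F (-1.40 ± 0.59, adjusted p = 0.26). The replication helicase genes MCM5 and MCM3 changed by -0.91 (adjusted p = 0.129) and -0.95 (adjusted p = 0.146). NoRx.F replicate 53 was the lowest or second lowest of its group for these genes, and without it MCM5 changed by -1.20 (adjusted p = 0.025) and MCM3 by -1.33 (adjusted p = 0.0185). With any one of the other arrays left out, MCM5 was at -1.08 to -0.65 and MCM3 at -1.10 to -0.73, and neither passed.

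None of the 8 genes tested of the CD28 and B7 family, the targets of the drug and their relatives, differed, and their median change was -0.01. CD28 was at 7.45, 6.84 and 7.05 in Bela.F and 7.42, 6.84, 6.51 and 5.99 in NoRx.F (0.39, adjusted p = 0.721). The other probe sets for CD28 changed by -0.43 and -0.30, and its change ranged from -0.12 to 0.62 over the alternatives tried. CTLA4 was at 9.12, 7.93 and 8.53 in Bela.F, 8.70, 7.06, 7.84 and 7.31 in NoRx.F, and 5.26, 6.24 and 7.16 as lowest, median and highest of the healthy controls. Every Bela.F array of CTLA4 was above the healthy range, and the transplant groups overlapped (0.81 ± 0.50, adjusted p = 0.512). ICOS, a relative of CD28 that is raised on activated T cells, changed by -0.51 (adjusted p = 0.563), and CD80 and CD86, which T cells also carry at low levels, by 0.30 and -0.48 (adjusted p = 0.789 and 0.913).

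Cytotoxic genes did not differ detectably between the groups either, with none of 16 past the threshold and a median of -0.17 (-0.02 without Bela.F replicate 57). GZMB, a granule protease of killer cells, was at 14.59, 13.88 and 14.43 in Bela.F, against 14.57, 14.59, 14.77 and 14.19 in NoRx.F, and 11.38, 13.06 and 13.73 as lowest, median and highest of the healthy controls. Both transplant groups were above the whole healthy range, and the change between them was -0.23 with a 95% interval of -1.44 to 0.99 (adjusted p = 0.931). IFNG was at 8.56, 6.09 and 6.97 in Bela.F and 6.61, 6.33, 5.18 and 6.82 in NoRx.F (0.99 ± 0.72, adjusted p = 0.612), a spread of over 2 log2 units within Bela.F. TBX21, the transcription factor of type 1 responses, changed by -0.29 (adjusted p = 0.905).

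Of 9 inhibitory receptors and related genes, 1 rose (beside 1.67% of all genes). Their median was 0.26, with 0.05 and 0.07 without Bela.F replicates 47 and 46 and 0.65 without replicate 57. This was TOX, a nuclear factor of T cells under lasting stimulation and of thymic development, at 9.75, 10.11 and 9.84 in Bela.F, 8.92, 8.36, 8.67 and 9.10 in NoRx.F, and 9.13, 9.89 and 10.13 as lowest, median and highest of the healthy controls. TOX rose by 1.12 ± 0.23 (SE, adjusted p = 0.00206) and passed under all 17 alternatives, with 0.87 at its second probe set. Against healthy controls TOX was at 0.08 in Bela.F (adjusted p = 0.841) and at -1.04 in NoRx.F (adjusted p = 1.16e-07). The receptors themselves did not pass. LAG3 was at 11.83, 10.27 and 10.87 in Bela.F, 10.73, 11.44, 11.47 and 10.75 in NoRx.F, and 6.48, 7.30 and 7.84 as lowest, median and highest of the healthy controls (-0.11 ± 0.46, adjusted p = 0.962). HAVCR2, which encodes TIM-3, changed by 0.03 (adjusted p = 0.987) and TIGIT by -0.55 (adjusted p = 0.493).

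In the lists for T cell activation (11 tested, median 0.26), regulatory T cells (10 tested, median -0.17), Th17 and Tc17 cells (10 tested, median -0.15), homing receptors (11 tested, median -0.31) and the type I interferon response (13 tested, median -0.48), no gene passed. The activation median was -0.16 without Bela.F replicate 47, the homing median -0.01 without Bela.F replicate 57, and the interferon median -0.20 without NoRx.F replicate 52 and -0.29 without Bela.F replicate 57. With 1 array left out the regulatory T cell median ranged from -0.27 to -0.07 and the Th17 median from -0.20 to -0.09. MYC, a driver of T cell growth, was at 10.16, 9.72 and 10.10 in Bela.F and 8.78, 8.75, 8.45 and 8.86 in NoRx.F (1.26 ± 0.42, adjusted p = 0.119), without overlap. IL2RA, the high-affinity chain of the IL-2 receptor, changed by -0.11 (adjusted p = 0.952) and FOXP3, the master factor of regulatory T cells, by -0.25 (adjusted p = 0.702). CXCR3, a receptor for inflamed tissue, was at 9.19, 7.86 and 8.26 in Bela.F and 9.65, 9.41, 9.71 and 8.996 in NoRx.F (-1.01 ± 0.32, adjusted p = 0.0947). ISG15, induced by interferon, was at 9.97, 9.10 and 9.35 in Bela.F and 10.29, 10.30, 11.12 and 9.86 in NoRx.F (-0.92 ± 0.45, adjusted p = 0.349), and the groups overlapped.

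Genes induced by cytokine receptors through STAT5 had a median change of 0.47 over 9 tested, with none past the threshold. SOCS2, a feedback inhibitor of cytokine signalling, was at 6.94, 8.39 and 7.64 in Bela.F, 5.47, 5.20, 4.88 and 6.87 in NoRx.F, and 4.18, 6.50 and 8.57 as lowest, median and highest of the healthy controls (2.02 ± 0.77, adjusted p = 0.189). CISH, of the same family, was at 8.78, 9.51 and 8.66 in Bela.F and 7.16, 7.01, 7.10 and 8.89 in NoRx.F (1.42 ± 0.47, adjusted p = 0.107). NoRx.F replicate 53 alone was within the Bela.F range of CISH, and without it the change was 2.08 (adjusted p = 0.00474). PTPN13, a protein tyrosine phosphatase outside that list, was at 6.32, 6.87 and 5.50 in Bela.F, 4.72, 4.30, 4.01 and 4.98 in NoRx.F, and 6.99, 7.73 and 8.84 as lowest, median and highest of the healthy controls. Its change of 1.71 ± 0.52 (SE) missed the threshold with an adjusted p of 0.0694, and with the animal as a replicate block it passed (adjusted p = 0.0445). The immediate early genes JUNB (1.30, adjusted p = 0.132), NR4A2 (1.52, adjusted p = 0.53) and FOS (1.87, adjusted p = 0.625) did not overlap between the groups and did not pass. The groups did not overlap in 13.3% of all genes tested.

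The neutrophil granule list too was made with earlier results of these data known. Of its 14 genes tested, 2 rose (beside 1.67% of all genes) and none fell, with a median of 0.81. Without Bela.F replicate 46 none passed and the median was 0.34. LCN2, a secreted iron-sequestering protein of neutrophils, was at 6.69, 5.03 and 7.43 in Bela.F, 4.06, 3.92, 4.11 and 4.25 in NoRx.F, and 3.65, 4.12 and 4.80 as lowest, median and highest of the healthy controls. GCA, a calcium-binding protein of neutrophil granules, was at 7.81, 6.53 and 8.43 in Bela.F, 5.37, 5.06, 5.98 and 5.36 in NoRx.F, and 4.93, 5.76 and 6.24 as lowest, median and highest of the healthy controls. In both genes every Bela.F array was above every NoRx.F array and every healthy control, and replicate 46 was the highest. For LCN2 every NoRx.F array and the healthy median lay below the filter level of 4.65. LCN2 was thus tested only through groups where it is high, and its change is measured from a level near background. The changes were 2.28 ± 0.49 for LCN2 (SE, adjusted p = 0.0042) and 2.14 ± 0.48 for GCA (SE, adjusted p = 0.00667), and without Bela.F replicate 46 they were 1.75 and 1.72 (adjusted p = 0.0761 and 0.0806). The 3 dimmer probe sets for LCN2 changed by 0.04, 0.16 and -0.02. Under FR104, LCN2 was at 5.18, 4.59 and 7.70 and GCA at 6.19, 5.68 and 8.53, so that 1 FR104.F array was above every Bela.F array in both genes. Bela.F against FR104.F was at 0.57 for LCN2 (adjusted p = 0.795) and 0.79 for GCA (adjusted p = 0.67), neither past the threshold. Single arrays of Siro.F also lay above the healthy range, at 5.71 for LCN2 and 7.54 for GCA, and so did Tac.Mtx.F arrays, at 4.96 for LCN2 and at 6.63 and 6.996 for GCA.

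CAMP, an antimicrobial peptide of neutrophil granules, was at 8.51, 7.96 and 8.98 in Bela.F and 6.43, 6.78, 7.02 and 7.38 in NoRx.F (1.57 ± 0.72, adjusted p = 0.309). S100A8, an abundant calcium-binding protein of neutrophils and monocytes, was at 13.32, 11.91 and 13.44 in Bela.F, 12.92, 9.02, 13.42 and 10.45 in NoRx.F, and 5.22, 6.79 and 9.06 as lowest, median and highest of the healthy controls. It was far above the healthy median in both groups, and the groups overlapped (1.44 ± 1.17, adjusted p = 0.664). MPO and ELANE, proteins of immature neutrophils, changed by -0.09 and -0.24 (adjusted p = 0.923 and 0.607). The mean of the list relative to the healthy controls was 1.67, 1.27 and 2.20 in Bela.F and 1.03, 0.44, 1.25 and 0.66 in NoRx.F, with -0.39 to 0.52 in the healthy controls. In sorted cells measured in bulk, more cells of a type and more RNA per cell cannot be told apart, and the part of such cells in the other changes was not tested. CD177, a neutrophil surface protein picked after its values were seen, was at 7.60, 6.08 and 9.98 in Bela.F and 6.07, 6.23, 6.57 and 5.93 in NoRx.F. Its change of 1.68 (adjusted p = 0.0464) came with overlap, and was 0.63 without Bela.F replicate 46 (adjusted p = 0.618).

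Markers of other blood cells gave no gene past the threshold. This held for monocyte (11 tested, median -0.04, and -0.09 to 0.22 with 1 array left out), B cell (5 tested, median 0.13), plasma cell (5 tested, median -0.01), NK cell (5 tested, median 0.39), erythroid (4 tested, median -0.18) and platelet genes (8 tested, median -0.16). Among the 7 T cell identity genes tested, none passed (median 0.09, and -0.07 without Bela.F replicate 57). The coreceptor genes CD4, CD8A and CD8B changed by 0.31, -0.29 and -0.78 (adjusted p = 0.698, 0.663 and 0.389).

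**Figure D4:**
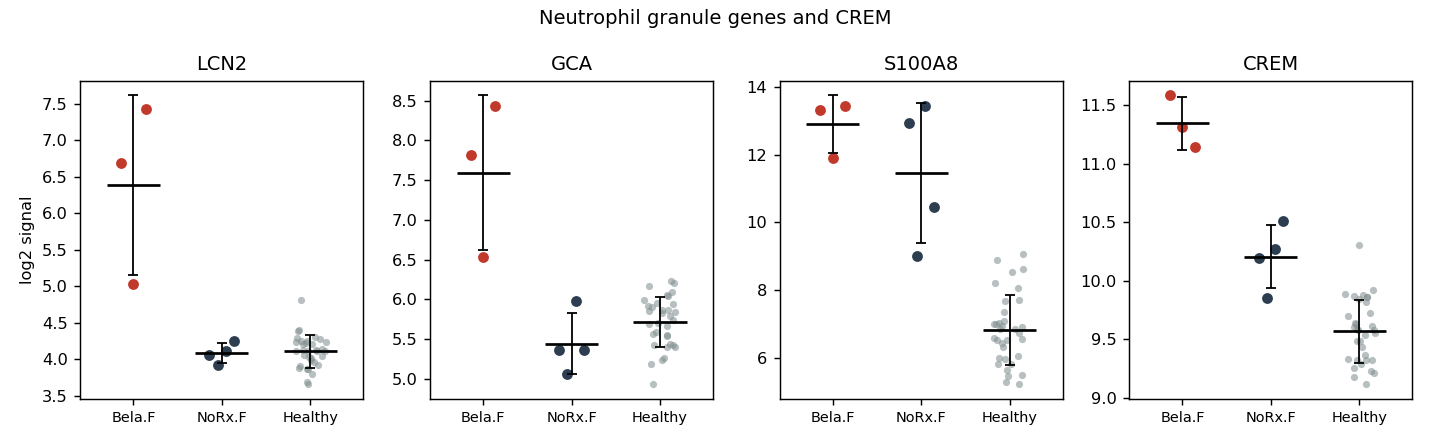
Log2 signal (vertical axes, which do not start at 0) of 3 genes of the neutrophil granule list and of CREM, with a point for each array of Bela.F (n = 3), NoRx.F (n = 4) and the healthy controls (n = 34), and bars for mean ± SD. LCN2 and GCA are above every healthy control in all Bela.F arrays and in no NoRx.F array, with all NoRx.F arrays of LCN2 below the filter level of 4.65. S100A8 is raised in both transplant groups, with NoRx.F arrays from 9.02 to 13.42.

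A few further genes were higher in Bela.F than in NoRx.F and in healthy controls, and these were picked after their values were seen. CREM, a cyclic AMP-responsive transcription factor with activator and repressor forms, was at 11.58, 11.31 and 11.14 in Bela.F, 10.20, 9.85, 10.27 and 10.51 in NoRx.F, and 9.12, 9.58 and 10.30 as lowest, median and highest of the healthy controls. Every Bela.F array was above every NoRx.F array and every healthy control, and the change was 1.13 ± 0.25 (SE, adjusted p = 0.00542). CREM passed whichever array was left out, but not with its probe sets averaged (adjusted p = 0.0886). CRYBB1, a crystallin of the lens, was at 8.02, 6.29 and 6.57 in Bela.F and 5.75, 6.23, 5.76 and 5.83 in NoRx.F (1.07 ± 0.21, adjusted p = 0.00111). Bela.F replicate 47 was far above the others, and without it the change in CRYBB1 was 0.54 (adjusted p = 0.085). HK3, the hexokinase of myeloid cells, was at 9.05, 8.27 and 8.05 in Bela.F, 7.07, 7.35, 7.28 and 7.55 in NoRx.F, and 6.20, 6.57 and 7.24 as lowest, median and highest of the healthy controls. Its change was 1.15 ± 0.28 (SE, adjusted p = 0.0155), and 0.85 without replicate 47 (adjusted p = 0.143).

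Set against healthy controls, 2082 genes (17.6%) differed in Bela.F, 1462 higher (12.4%) and 620 lower (5.25%). In NoRx.F, 4181 genes (35.4%) differed, 2361 higher (20.0%) and 1820 lower (15.4%). The 2 counts share the healthy controls, and the groups differ in size. Bela.F replicate 47 and NoRx.F replicate 53 each have a healthy array of the same animal, which the fit treated as independent. With the animal as a replicate block the counts were 2223 for Bela.F and 4286 for NoRx.F. Without Bela.F replicate 47 the Bela.F count was 818, and without replicate 46 it was 1196. Of the genes described above, CA6 was higher than in healthy controls in Bela.F (0.96, adjusted p = 0.0316) and lower in NoRx.F (-1.53, adjusted p = 3.27e-05). LAG3 was higher in both, by 3.71 in Bela.F and 3.82 in NoRx.F (adjusted p = 7.98e-13 and 9.42e-16), and so was MKI67, by 2.40 and 3.41 (adjusted p = 2.38e-07 and 5.68e-14). TCF7 was at -0.34 in Bela.F (adjusted p = 0.248) and at -1.64 in NoRx.F (adjusted p = 1.99e-11), and AATK at 0.42 (adjusted p = 0.345) and -1.52 (adjusted p = 1.53e-06). CREM was higher in both, by 1.77 and 0.64 (adjusted p = 9.88e-11 and 0.00172).

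Whether belatacept and another prophylaxis differ in their change against no prophylaxis was tested by setting Bela.F against that group, since NoRx.F cancels. Against FR104.F, 4 genes (0.0339%) differed, all 4 higher in Bela.F (0.0339%) and none lower (0%), and 1087 genes had an unadjusted p under 0.05 in limma. SUCNR1, the receptor for succinate, was at 5.54, 4.72 and 7.08 in Bela.F, 3.93, 4.03 and 3.80 in FR104.F, and 5.21, 5.24, 5.71 and 6.68 in NoRx.F. Bela.F exceeded FR104.F by 1.86 ± 0.39 (SE, adjusted p = 0.0354), with no overlap, and Bela.F and NoRx.F overlapped. Every FR104.F array and every healthy control (3.31 to 4.32) was below the filter level of 4.65, so SUCNR1 was tested only through groups where it is high. CRYBB1 was higher by 1.35 (adjusted p = 0.00116), EIF3I, a subunit of a translation initiation factor, by 1.02 (adjusted p = 0.0354), and RBKS, ribokinase, by 0.87 (adjusted p = 0.035). Of the 6 fits that left out 1 array, CRYBB1 passed in 5, RBKS in 2, and SUCNR1 and EIF3I in 1 each. No gene passed without Bela.F replicate 47, when 635 had an unadjusted p under 0.05 in limma. CA6 differed between Bela.F and FR104.F by 0.0016 ± 0.49 (SE, adjusted p = 1), with means of 12.40 ± 0.052 in Bela.F and 12.38 ± 0.29 in FR104.F (SD, n = 3 each).

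Against Siro.F, 8 genes (0.0678%) differed, 5 higher (0.0424%) and 3 lower (0.0254%) in Bela.F. CREM was at 11.58, 11.31 and 11.14 in Bela.F, all above its 10.17, 9.90, 10.26 and 10.22 in Siro.F, and the difference was 1.20 ± 0.25 (SE, adjusted p = 0.0231). In FR104.F it was at 11.19, 11.30 and 10.80, and the fitted difference, Bela.F minus FR104.F, was 0.23 ± 0.27 (SE, adjusted p = 0.86). CRYBB1 (1.12), FKBP11, a folding enzyme of the secretory pathway (0.81), RBKS (0.73) and PTPN1, a phosphatase of JAK signalling (0.64), were the others higher, and SCUBE2 (-0.75), MAGI3 (-0.97) and TMEM273 (-1.88) were lower. Without Bela.F replicate 47 no gene passed in limma, when 747 had an unadjusted p under 0.05.

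Against Tac.Mtx.F, which shares batch label 3 with Bela.F, 40 genes (0.339%) differed, 20 higher (0.169%) and 20 lower (0.169%) in Bela.F. The genes named here were picked after their values were seen. LAG3 was at 11.83, 10.27 and 10.87 in Bela.F, all above its 8.73, 9.44 and 8.77 in Tac.Mtx.F (2.01 ± 0.43, adjusted p = 0.0106), and HAVCR2 was at 7.68, 5.83 and 6.29 in Bela.F, against 5.298, 5.11 and 5.40 in Tac.Mtx.F (1.33 ± 0.30, adjusted p = 0.0212). SERPINE2, an inhibitor of serine proteases, was at 9.62, 9.25 and 10.01 in Bela.F and 7.37, 6.64 and 6.36 in Tac.Mtx.F (2.84 ± 0.65, adjusted p = 0.0212). HK3 was higher by 1.75 and LCN2 by 1.88. Of the 6 fits that left out 1 array, HK3 passed in 6, LAG3 in 3, HAVCR2 and SERPINE2 in 2 each, and LCN2 in 1.

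Genes lower in Bela.F than in Tac.Mtx.F included CCR4, a homing receptor of Th2 cells, regulatory T cells and skin-seeking T cells. It was at 4.52, 4.96 and 4.64 in Bela.F and 6.87, 6.98 and 6.20 in Tac.Mtx.F, with no overlap (-1.98 ± 0.48, adjusted p = 0.0333). TWIST1, a transcription factor that restrains Th1 cells (-1.80), and HDAC9, a histone deacetylase (-2.02), were lower as well. So were FCRL3, a receptor of regulatory T and NK cells (-2.38), MATN2, a matrix protein (-2.69), and IL17A, the cytokine of Th17 cells (-0.86). For IL17A, TWIST1, MATN2 and FCRL3 every Bela.F array was below the filter level of 4.65, and for CCR4 replicates 47 and 46 were. IL17A was at 3.72 to 3.81 in Bela.F, 4.28 to 5.16 in Tac.Mtx.F and 3.57 to 4.22 in healthy controls. For TWIST1 these were 3.59 to 4.07, 4.71 to 6.03 and 3.41 to 4.12, so Bela.F lay within the healthy range of both. FCRL3 passed in 4, IL17A and HDAC9 in 3, and MATN2 and CCR4 in 2 of the 6 fits that left out 1 array. Without Bela.F replicate 47 the count was 6, and CRYBB1, HK3, TWIST1 and CEP97, of the 40 genes, passed whichever of the 6 arrays was left out.

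**Figure D5:**
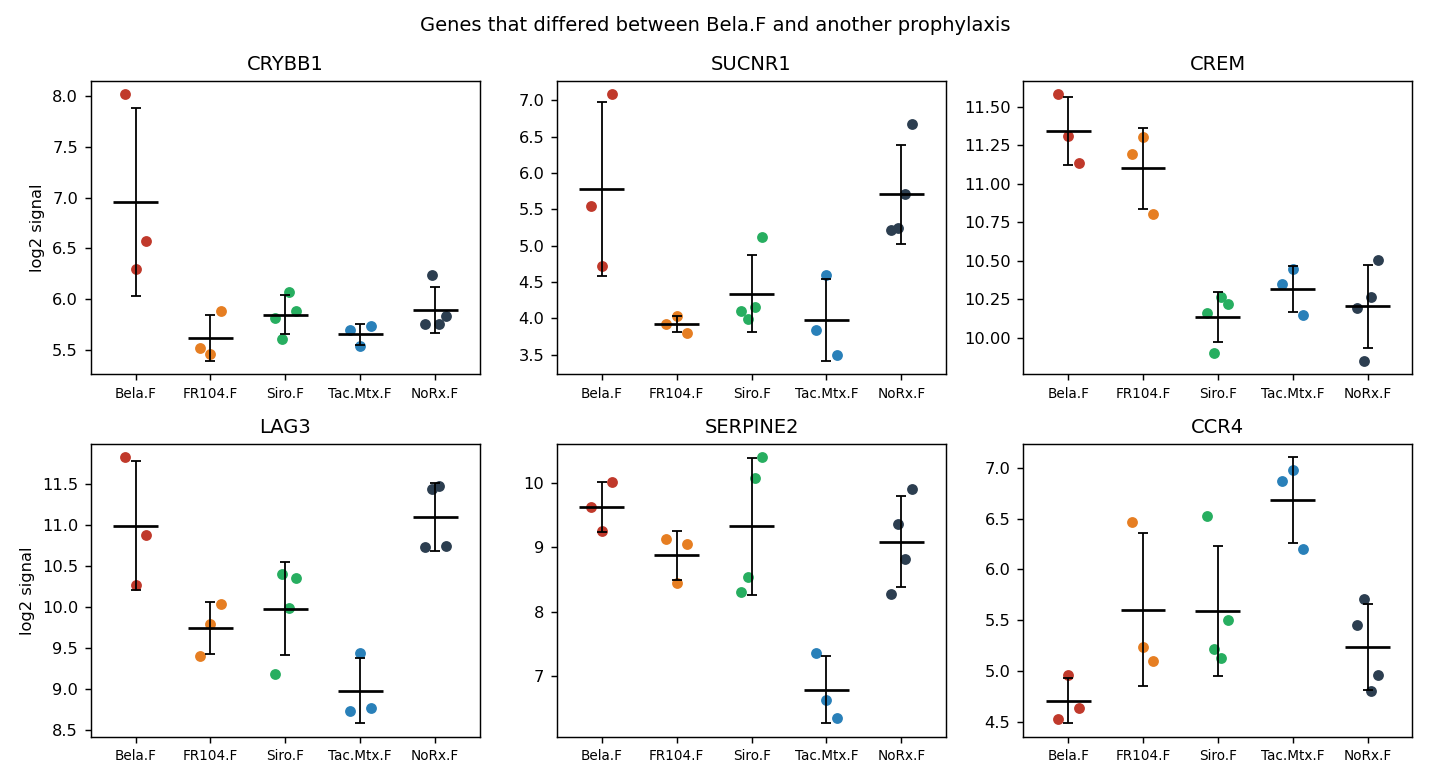
Log2 signal (vertical axes, which do not start at 0) of 6 genes past the threshold between Bela.F (n = 3) and FR104.F (n = 3), Siro.F (n = 4) or Tac.Mtx.F (n = 3), with NoRx.F (n = 4) at the right, a point for each array and bars for mean ± SD. CREM is at 11.14 to 11.58 in Bela.F and 10.80 to 11.30 in FR104.F, and CCR4 is lower in Bela.F (4.52 to 4.96) than in Tac.Mtx.F (6.20 to 6.98).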

How the data were processed

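RNA of CD3-sorted blood T cells was measured on 81 Affymetrix arrays of 52865 probe sets, in 4 batches given by the labels. The deposited values are log2 signals that the authors made with RMA in affy, per the submitters' processing notes, and the versions are not given in the sources used here. Among healthy controls an F test between batch labels gave p above 0.95 for 61.0% of probe sets, which shows that batches had been adjusted before deposit by a method not given in the sources used here, and the spread may be understated. The number of arrays limits the precision.

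GEO's platform annotation gave 1 gene for 24969 probe sets, several for 361 and none here for 27535, and symbols were updated through RefSeq gene IDs. The probe set with the highest mean was used for each of 14132 genes, and the 11806 genes that exceeded 4.65, the 40th percentile of the whole table, on 2 or more arrays were tested. The test was limma 3.58.1 in R 4.3.3 (statmod 1.5.0): lmFit with terms for group and batch label over the 81 arrays, 62 residual degrees of freedom, eBayes with a trend, two-sided, Benjamini-Hochberg within each of 6 comparisons. It was tested on simulated data.

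Members, 25 gene lists and tests were chosen with earlier results of these data known. The rule for genes named took, among genes past the threshold whose groups do not overlap, the 15 largest rises and 15 largest falls, then CA6, TCF7 and SLC27A2, list members past the threshold (or the 2 nearest to it) and a fixed set. Only a part is printed. Other genes, list members included, were picked after their values were seen. No Bela.F animal is among the NoRx.F animals, so replicate numbers pair nothing between these groups.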

Additional observations from a re-analysis of the deposited data

Results flagged for a closer look

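In NoRx.F, 1 array stood far from the other 3 in 5 of the 99 genes checked, where the gap divided by the range of the group was above Dixon's critical value for 4 arrays, and chance gives about 1 such gene in 20. For CISH (0.920), replicate 53 was at 8.89 and the others at 7.01 to 7.16. For ARRDC3 (0.837), replicate 53 was at 9.31 and the others at 8.36 to 8.52. For CCR8, a chemokine receptor of regulatory T cells (0.913), replicate 50 was at 4.07 and the others at 4.59 to 4.64. For FOXP3 (0.864), replicate 51 was at 5.18 and the others at 4.66 to 4.73. For PDRG1 (0.844), replicate 52 was at 9.95 and the others at 9.51 to 9.58.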

How the results depend on the processing

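The count of genes past the threshold in Bela.F against NoRx.F (220) was 711 without the batch label, 464 with array weights and 85 when each gene's probe sets were averaged (11300 genes tested), and 86 to 454 with 1 array left out. Between 149 and 248 passed under the other alternatives for named genes, and with only the 7 arrays 86 of the 149 were among the 220. With 1 array left out, the count against healthy controls was 818 to 2182 for Bela.F (2082) and 3590 to 3926 for NoRx.F (4181). Against FR104.F (4) it was 0 to 16, against Siro.F (8) 0 to 33 and against Tac.Mtx.F (40) 6 to 108, and without the batch label it was 41 against FR104.F and 82 against Siro.F. Leaving out Bela.F replicate 47 gave the lowest count against each of these 3 prophylaxes and leaving out replicate 57 the highest. With the animal as a replicate block (correlation 0.194), 231 genes passed in Bela.F against NoRx.F, 214 of them among the 220, and 4, 12 and 44 against FR104.F, Siro.F and Tac.Mtx.F. Of 60 named genes past the threshold, 10 were past it under every alternative and 19 with each array left out. RPL9 was at -0.22 with the mean of its probe sets (adjusted p = 0.767 in limma). The probe set used, with a mean level of 13.85, changed by 0.40. The other, with a mean level of 4.45, below the filter level, changed by -0.83. Why these probe sets differ was not tested. Signals near background and above the scanner ceiling limit what small differences show.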

Other observations

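Probe sets without a gene name here also differed. With all 37128 probe sets above the filter level tested together, an alternative chosen after seeing the data, 326 passed, 288 of them higher and 38 lower in Bela.F, and 114 of the 326 are among the 16962 probe sets with no gene name here.

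IL2, the growth factor of T cells, was past the threshold at a log2 change of 0.52 in Bela.F against NoRx.F. It passed in 1 of the 7 fits that left out 1 array. The other probe sets for IL2 changed by -0.13 and -0.21. IL2 did not pass with its probe sets averaged or with the animal as a replicate block. PDE4B, which degrades cyclic AMP, rose by 1.56, and FTL, the light chain of ferritin, by 0.94, at 8.33, 8.32 and 7.74 in Bela.F and 7.31, 6.99, 6.82 and 7.59 in NoRx.F. COX7A2, a subunit of cytochrome c oxidase, and NDUFV2, a subunit of complex I, were higher in Bela.F. COX7A2 was at 11.54, 11.42 and 11.41 in Bela.F and 10.16, 10.27, 10.40 and 10.87 in NoRx.F (1.03, adjusted p = 0.00136 in limma), and NDUFV2 rose by 1.07 (adjusted p = 0.0238 in limma). A second NDUFV2 probe set changed by 0.04, and the mean of both by 0.55 (adjusted p = 0.204 in limma). NDUFV2 passed in 2 of the 7 fits that left out 1 array and FTL in 4, and COX7A2 in all 7 but not with its probe sets averaged (adjusted p = 0.0812 in limma). Of the 32 genes with NDUF symbols, NDUFV2 was the 1 that rose (beside 1.67% of all genes), none fell, and 28 were below 0. These genes were picked after their values were seen.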
